A study of Saccharomyces cerevisiae with 6 samples.

Results

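The cell wall integrity pathway of baker's yeast, Saccharomyces cerevisiae, was described through 10 genes: the sensor genes WSC1, WSC2 and MID2, the exchange factor gene ROM2, the protein kinase C gene PKC1, the MAP kinase cascade genes BCK1, MKK1, MKK2 and SLT2, and the transcription factor gene RLM1. They were chosen by name, and all 10 of them were measured, out of 5449 genes on the array. Each was represented by 1 probe set that the annotation pairs with that gene alone, and WSC1 stands there under its other name SLG1. Transcript levels were measured on Affymetrix arrays in 3 cultures treated with clioquinol (CQ, a metal-binding hydroxyquinoline) at 80 µM for 5 h and in 3 cultures given 1% of the solvent dimethyl sulfoxide (DMSO) for 5 h. All 6 were cultures of the haploid laboratory strain BY4742, grown in the rich medium YPD at mid-log phase before the supplement was added, and the labels call them biological replicates. Whether the CQ cultures also held DMSO is not stated in the labels, so the solvent and CQ cannot be told apart. The single comparison asks how far transcript levels of the pathway differed between CQ and DMSO cultures.

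The pathway carries signals from the cell surface to genes that build and repair the cell wall. Sensors of the Wsc and Mid2 families span the plasma membrane and, when the wall is stretched or damaged, recruit Rom2, which loads the small GTPase Rho1 with GTP. Rho1 activates Pkc1, which feeds a MAP kinase cascade of Bck1, the redundant pair Mkk1 and Mkk2, and Slt2; Slt2 then phosphorylates the transcription factor Rlm1. Because the pathway works by phosphorylation, transcript levels show the amount of message for its parts, not its activity.

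Median intensities over the genes were 977 to 1008 on the CQ arrays and 889.7 to 926 on the DMSO arrays, so every CQ array lay somewhat above every DMSO array. Results with each array centred on its median are given further on. Of the strain's deleted marker genes, LEU2, LYS2 and URA3 stayed at or under background on all 6 arrays, and HIS3, whose allele lacks only an internal part, did not. Genes specific to the mating type alpha, which BY4742 has, had mean intensities of 1192 to 2881 with CQ and 1802 to 6995 with DMSO, against 56.1 to 529 with CQ and 68.6 to 465 with DMSO for genes specific to mating type a. The 3' to 5' index is a measure of RNA integrity and labelling, the mean log2 ratio of 3' over 5' probe sets of 6 control genes. It was 1.30, 1.53 and 1.15 on the CQ arrays and 0.96, 0.96 and 0.88 on the DMSO arrays. Every CQ array lay above every DMSO array, so the index and CQ cannot be told apart. Values with the index in the fit rest on its spread within the groups. Differences between the groups are on the scale of log2(intensity + 16), given as CQ minus DMSO, and a gene is called changed at a limma adjusted p under 0.05 over all 5449 genes.

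With CQ the transcripts of the kinase cascade and of its transcription factor were higher, while those of the sensors WSC1, WSC2 and MID2 were not. This contrast does not extend to all sensors: outside the 10 genes WSC3 was called higher, MTL1 lower and WSC4 was not called. Of the 10 genes 7 rose, 0 fell and 3 did not pass the test. Over the whole array 36.1% of the genes were called higher and 31.9% lower, and the counts for the pathway are to be read against those shares. The median log2 difference was 0.47 over the 10 genes and 0.02 over all genes. CQ and DMSO arrays did not overlap for the 7 genes that rose, where 38.6% of all genes lay higher without overlap. WSC1 was lower with CQ without overlap, which held for 35.1% of all genes. All 10 genes lay above background on all 6 arrays, and none of their mean intensities passed 28.4% of the highest value on an array, so none was near the top of the scale.

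**Figure D1:**
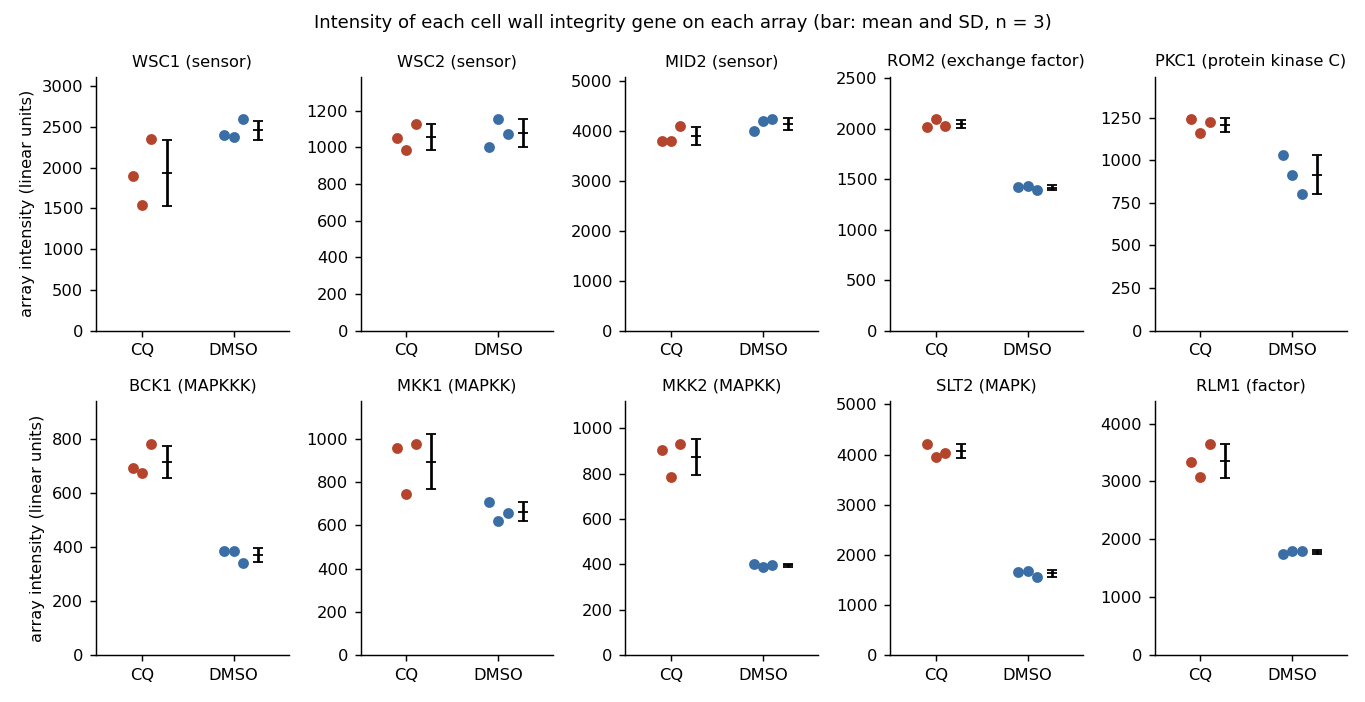
Intensity of the 10 cell wall integrity genes (linear units, each panel from 0), with 3 CQ arrays in red on the left and 3 DMSO arrays in blue on the right; bars give the mean and SD of each group (n = 3). The groups lie apart for ROM2, PKC1, BCK1, MKK1, MKK2, SLT2 and RLM1 with CQ above, for WSC1 with CQ below, and they overlap for WSC2 and MID2.

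The sensor genes came first in the pathway and none of the 3 was called. WSC1 (YOR008C), the main sensor of heat and wall damage, had intensities of 1898, 1544 and 2348 on the CQ arrays and 2405, 2373 and 2592 on the DMSO arrays. All CQ values lay below all DMSO values, but the CQ values spread widely, with an SD of 403 against 118 with DMSO, and replicate 2 was the lowest. The log2 difference was -0.37 ± 0.14 (SE; 95% interval -0.70 to -0.03), and its limma adjusted p of 0.0505 just missed the threshold.

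WSC1 is the gene of the 10 whose call depended most on the setting. It was called lower under 8 of 19 alternatives, among them arrays centred on their median (-0.50, adjusted p = 0.0106) and the fit without CQ replicate 3 (-0.52, adjusted p = 0.00543). Without CQ replicate 2 the difference was -0.22 (adjusted p = 0.0902). When the 3' to 5' index was entered in the fit its sign turned, to 0.26 with an adjusted p of 0.125. The index was highest on CQ replicate 2, where WSC1 was lowest, and its part in the difference was not tested; no direction is given for this gene.

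WSC2 (YNL283C), a sensor related to WSC1, read 1053, 987 and 1129 with CQ and 1002, 1153 and 1075 with DMSO. The groups overlapped, and the log2 difference of -0.03 ± 0.09 had a limma adjusted p of 0.797. The 95% interval ran from -0.23 to 0.17, which allows folds from 0.853 to 1.13. MID2 (YLR332W), a sensor of a second family that is also needed to survive mating pheromone, read 3797, 3785 and 4091 with CQ and 3992, 4183 and 4223 with DMSO. The difference of -0.09 ± 0.07 had an adjusted p of 0.317 and an interval of -0.26 to 0.08. It passed as lower (-0.22, adjusted p = 0.030) once each array was centred on its median, a step that moved the median gene from 0.02 to -0.11, and its sign turned when the index was entered (0.029).

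ROM2 (YLR371W), which encodes the exchange factor that activates Rho1, was higher on every CQ array with little spread. Its intensities were 2018, 2091 and 2022 with CQ and 1425, 1435 and 1389 with DMSO. It rose by 0.52 ± 0.07 (adjusted p = 0.00024), a fold of 1.44. PKC1 (YBL105C), the kinase that Rho1 activates, read 1239, 1161 and 1225 with CQ and 1032, 910.4 and 803 with DMSO. It rose by 0.40 ± 0.10 (adjusted p = 0.00783), or 1.32-fold, with most of the spread among the DMSO arrays.

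ROM2 and PKC1 are long genes, of 4071 and 3456 coding bases, and long genes as a class were higher with CQ on these arrays. Of the 461 genes of 3000 bases or more 70.9% rose and 10.4% fell, with a median log2 difference of 0.59, whereas of the 2134 genes of at least 1000 and under 2000 bases 33.3% rose and 33.1% fell, with a median of 0.00. Among genes of 3000 bases or more the difference of ROM2 stood at the 46.9th percentile and that of PKC1 at the 37.1th. With the coding-length trend over all genes removed, a setting added after the data were seen, ROM2 stood at 0.02 (adjusted p = 0.824) and PKC1 at -0.02 (adjusted p = 0.881). PKC1 also missed the threshold with the index entered in the fit, at 0.41 with an adjusted p of 0.117. What part coding length and RNA integrity have in these differences was not tested.

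**Figure D2:**
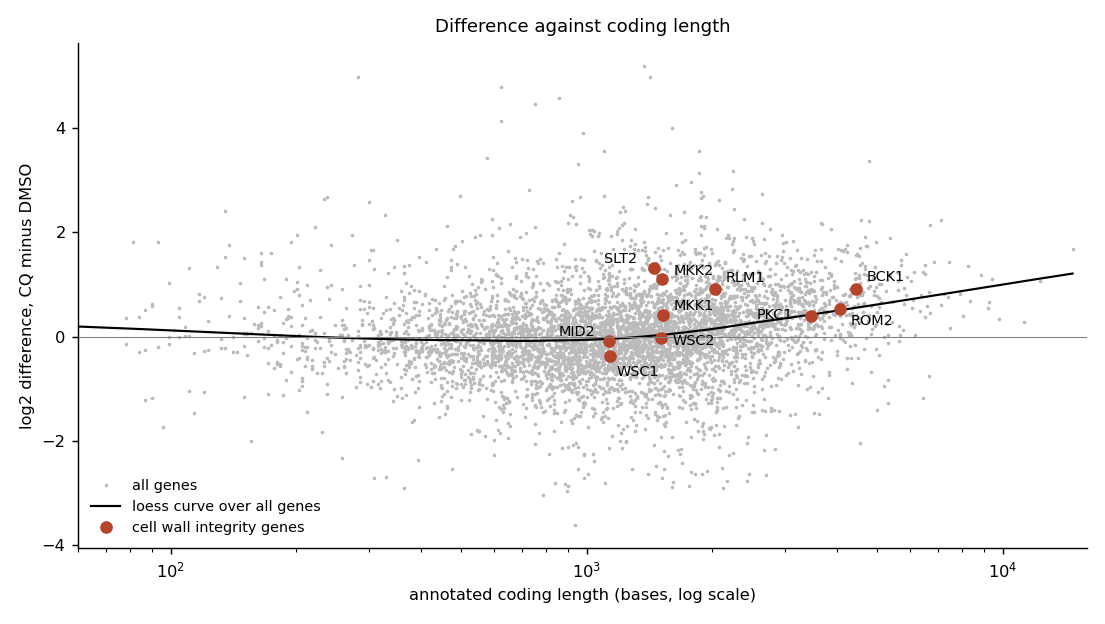
Log2 difference between CQ and DMSO (vertical axis) against annotated coding length in bases (log scale) for all 5449 genes in grey, with the 10 cell wall integrity genes in red and a loess curve over all genes in black. ROM2 and PKC1 lie on the curve, BCK1 lies above it by 0.37, and MKK2, SLT2 and RLM1 lie well above it.

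The kinase cascade below Pkc1 held the largest differences. BCK1 (YJL095W), the MAP kinase kinase kinase, read 692, 673 and 784 with CQ and 386, 387 and 339 with DMSO. It rose by 0.92 ± 0.09 (adjusted p = 5.63e-05), a fold of 1.89. At 4437 bases it is the longest of the 10 genes; its difference stood at the 72.7th percentile of the genes of 3000 bases or more, and was 0.37 (adjusted p = 0.0078) with the length trend removed.

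MKK1 (YOR231W) and MKK2 (YPL140C) encode the redundant pair of MAP kinase kinases, and they differed in size of change. MKK2 read 903, 784 and 931 with CQ and 402, 387 and 395 with DMSO, and rose by 1.11 ± 0.09 (adjusted p = 1.61e-05), a fold of 2.16. MKK1 read 957, 747 and 978 with CQ and 709.6, 622 and 657 with DMSO. The lowest CQ array, replicate 2, lay only a little above the highest DMSO array. MKK1 rose by 0.41 ± 0.12 (adjusted p = 0.0131), a fold of 1.33, but not in every fit: the adjusted p was 0.0504 without CQ replicate 1, 0.0523 without DMSO replicate 2 and 0.0519 with quantile normalization. The coding regions of both genes are of nearly the same length, 1527 bases for MKK1 and 1521 for MKK2, and the length trend at that size was 0.04 and 0.03.

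SLT2 (YHR030C), the MAP kinase at the end of the cascade, had the largest difference of the 10 genes and one of the tightest. It read 4217, 3942 and 4029.8 with CQ and 1662, 1666 and 1549.6 with DMSO, so the lowest CQ array was more than 2-fold above the highest DMSO array. It rose by 1.31 ± 0.07 (adjusted p = 3.92e-06), a fold of 2.48 with a 95% interval of 2.21 to 2.79, and stood at the 94.4th percentile of the differences of all genes. The value moved little under any of the 19 alternatives, being 1.18 with arrays centred on the median, 1.33 with the index in the fit and 1.29 after removal of the length trend.

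RLM1 (YPL089C) encodes the MADS-box transcription factor that Slt2 activates. It read 3339, 3072 and 3653 with CQ and 1737, 1793 and 1798 with DMSO, with no overlap and a spread among CQ arrays of 0.12 (SD, log2) against 0.03 among DMSO arrays. It rose by 0.91 ± 0.08 (adjusted p = 3.93e-05), a fold of 1.88. It was called under all 19 alternatives, at 0.76 after removal of the length trend and 1.16 with the index in the fit.

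Ordered by difference the genes ran SLT2, MKK2, BCK1, RLM1, ROM2, MKK1, PKC1, WSC2, MID2 and WSC1. Relative to each gene's DMSO mean, the CQ arrays of SLT2 (lowest 1.27) did not overlap those of MKK2 (highest 1.21), those of RLM1 (lowest 0.79) did not overlap those of ROM2 (highest 0.56), and those of PKC1 (lowest 0.35) did not overlap those of WSC2 (highest 0.07). The other neighbours in that order overlapped. The order holds for the values as deposited: with the index in the fit MKK2 (1.36) stood above SLT2 (1.33) and MKK1 was at 0.81, and with the length trend removed BCK1 (0.37) stood beside MKK1 (0.38), and ROM2 (0.02) and PKC1 (-0.02) beside WSC2 (-0.06) and MID2 (-0.04). The median over the 10 genes was 0.51, 0.45 and 0.53 on CQ replicates 1, 2 and 3.

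**Figure D3:**
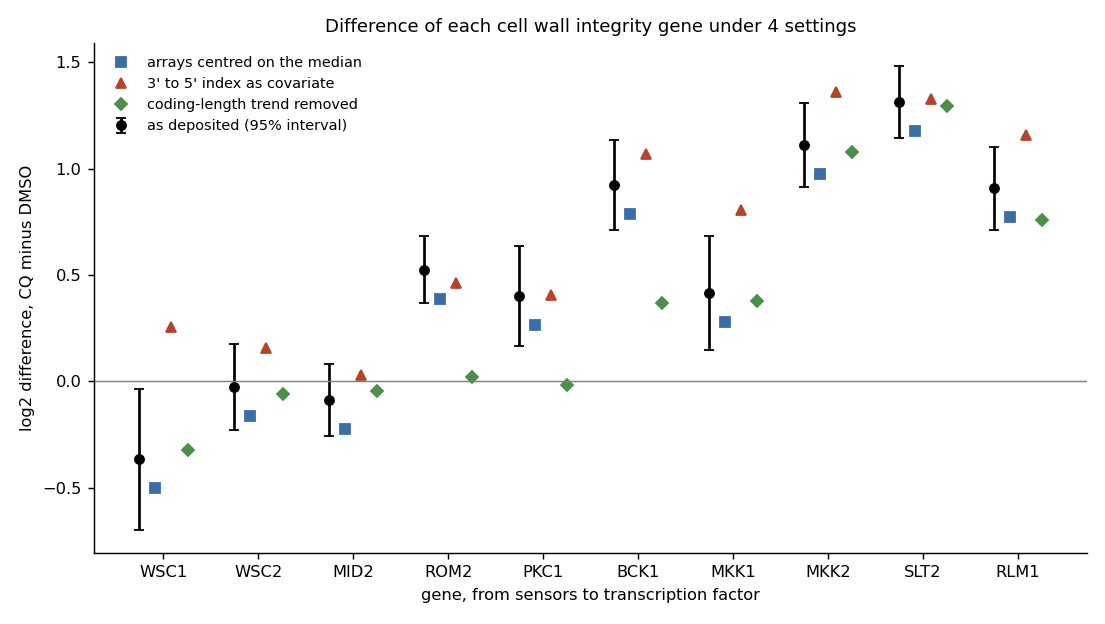
Log2 difference between CQ and DMSO for the 10 genes, from sensors at the left to the transcription factor at the right, as deposited (black, with 95% intervals from limma, n = 3 in each group), with arrays centred on the median (blue), with the 3' to 5' index in the fit (red) and with the coding-length trend removed (green). SLT2, MKK2 and RLM1 stay at 0.76 or above in all 4, ROM2 and PKC1 stand at 0.02 and -0.02 with the length trend removed, and WSC1 changes sign with the index in the fit.

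Related genes were compared within arrays, since a scaling factor common to all genes of 1 array nearly cancels in the log2 ratio of 2 genes. Quantile normalization does not cancel in this way. Under it WSC2 stood at -0.14 and WSC3 at 0.66, against -0.03 and 0.63 as deposited. For 8 such pairs an exact two-sided permutation test was run on that ratio, CQ against DMSO arrays, where 3 arrays against 3 cannot give a p below 0.1. The smallest p was reached by 7 of the 8 pairs (adjusted p over the 8 pairs = 0.114), so none could pass 0.05, and the sizes are given with the arrays that show them. The ratio of MKK1 to MKK2, relative to its DMSO mean, was -0.64, -0.79 and -0.65 on the CQ arrays and 0.07, -0.06 and -0.01 on the DMSO arrays, so that MKK1 was higher by 0.70 less than MKK2. The ratio of SLT2 to HOG1, the MAP kinase of the osmotic stress pathway, was 1.32, 1.31 and 1.29 on the CQ arrays and 0.06, -0.03 and -0.04 on the DMSO arrays.

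Of the 3 further sensor genes WSC3 was called higher, MTL1 lower, and WSC4, named after its value was seen, was not called (-0.02 ± 0.14, adjusted p = 0.883; 0.54 with the index in the fit, adjusted p = 0.0153). WSC3, a sensor related to WSC2, read 4760.1, 4084 and 4422 with CQ and 3072, 2758 and 2738 with DMSO and rose by 0.63 ± 0.09 (adjusted p = 0.000392). The ratio of WSC2 to WSC3 was accordingly lower by 0.65 with CQ, with no overlap of arrays. MTL1, the paralogue of MID2, read 2218, 1520.3 and 2511 with CQ and 3028, 3033 and 3233 with DMSO. It fell by 0.60 on the log2 scale (SE 0.17, adjusted p = 0.0135), a value that was -0.39 without CQ replicate 2, and with the index in the fit it stood at 0.16 and was not called (adjusted p = 0.368). The ratio of MID2 to MTL1 was higher by 0.51 with CQ, and by 0.32 without CQ replicate 2. The pair of WSC1 and WSC2 overlapped between groups (-0.34, exact p = 0.2).

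Further down the pathway the paralogues rose too, with larger differences than the genes they are related to, which the test on 3 arrays against 3 could not call. ROM1, the second exchange factor of this kind, rose by 0.87 ± 0.07 (adjusted p = 1.83e-05), and by 0.45 with the length trend removed, and the ratio of ROM2 to ROM1 was lower by 0.35 with CQ. KDX1 encodes a relative of Slt2 that lacks normal kinase activity and is a well-known output of the pathway. It read 1564, 1260.1 and 1679 with CQ and 497, 458 and 479.8 with DMSO and rose by 1.61 ± 0.11 (adjusted p = 9.97e-06). SMP1, the paralogue of RLM1, read 767, 779 and 1108 with CQ and 308, 257 and 237 with DMSO and rose by 1.65 ± 0.16 (adjusted p = 4.47e-05). The ratio of SLT2 to KDX1 was lower by 0.30 and that of RLM1 to SMP1 by 0.75, each without overlap.

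**Figure D4:**
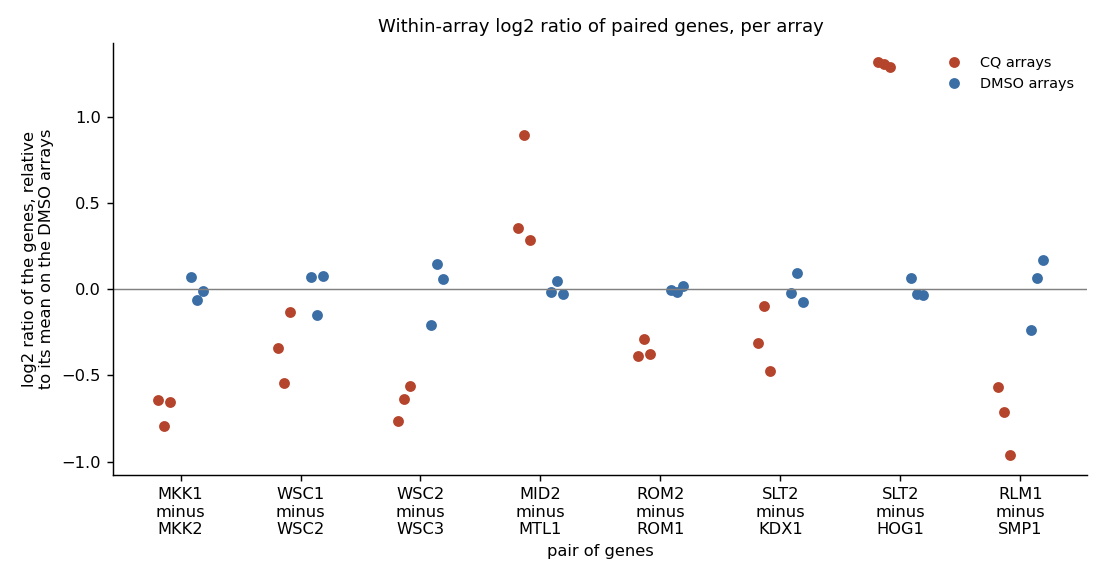
Log2 ratio of paired genes within each array, relative to the mean of that ratio on the DMSO arrays, with 3 CQ arrays in red on the left and 3 DMSO arrays in blue on the right for each of 8 pairs. The ratio of SLT2 to HOG1 sits near 1.30 on all CQ arrays, the ratio of MKK1 to MKK2 sits between -0.79 and -0.64, and only the pair of WSC1 and WSC2 overlaps between groups.

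Other genes that act in or on the pathway also tended to be higher with CQ. Of 25 such genes (further sensors, exchange factors and GTPase-activating proteins of Rho1, kinases, phosphatases and transcription factors) 17 rose, 4 fell and 4 did not pass, with a median of 0.58. Over all genes 36.1% were called higher and 31.9% lower. With the length trend removed 13 of the 25 genes rose and 6 fell, where 1715 of all 5449 genes rose and 1826 fell. The largest increase was in BAG7, which encodes a GTPase-activating protein that turns Rho1 off; it read 1987, 1883 and 2285 with CQ and 629.7, 564 and 686 with DMSO, a log2 difference of 1.69 ± 0.11 (adjusted p = 6.17e-06). It was followed by SMP1, KDX1 and MSG5. RHO1, the GTPase itself, named here after its value was seen, rose by 0.42 ± 0.08 (adjusted p = 0.00182), with 4805, 4172 and 4376 with CQ and 3337, 3322 and 3297 with DMSO.

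The phosphatases that remove phosphate from Slt2 split. MSG5 encodes a dual-specificity phosphatase that also acts on the pheromone kinase Fus3; it read 955, 886 and 1039 with CQ and 353, 377 and 317 with DMSO and rose by 1.42 ± 0.09 (adjusted p = 8.18e-06). SDP1 encodes a dual-specificity phosphatase selective for Slt2; it read 997, 942 and 977 with CQ and 2612, 2683 and 2682 with DMSO and fell by 1.44 on the log2 scale (SE 0.07, adjusted p = 2.46e-06). Both groups of arrays were narrow for SDP1 and lay far apart. The tyrosine phosphatase genes PTP2 and PTP3, which the rule for naming genes did not pick, rose by 0.75 ± 0.07 and 0.82 ± 0.09 (limma adjusted p = 3.89e-05 and 0.000114); PTP3 stood at 0.51 with the length trend removed.

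The other decreases were in SMI1 and SWI6, beside MTL1. SMI1 (also KNR4), which encodes a regulator of wall synthesis that binds Slt2, read 239, 205 and 239.6 with CQ and 542, 621 and 595 with DMSO and fell by 1.31 on the log2 scale (SE 0.09, adjusted p = 1.04e-05). SWI6, which encodes the partner of Swi4 in the second transcription factor downstream of Slt2, read 811, 884 and 819.7 with CQ and 1276, 1325 and 1335 with DMSO and fell by 0.64 (SE 0.07, adjusted p = 0.000121). SWI4 itself, named after its value was seen, was called higher at 0.47 ± 0.17 (adjusted p = 0.0399), but its groups overlapped, with 578, 422 and 679 with CQ and 456, 375 and 355 with DMSO, and it was called under 10 of 18 alternatives. With the length trend removed SWI4 stood at 0.07 (adjusted p = 0.724), and with the index in the fit at 1.07.

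Genes that the pathway is known to switch on, mostly through Rlm1, were higher in the majority of cases. Of 19 listed genes 18 were measured, of which 12 rose, 1 fell and 5 did not pass, with a median of 0.42. Over all genes 36.1% were called higher and 31.9% lower. With the length trend removed 10 of the 18 measured genes rose and 2 fell, where 1715 of all 5449 genes rose and 1826 fell. FKS1, named after its value was seen, went from 0.20 to -0.48 (limma adjusted p = 0.0373 and 0.000641). CHS3, named likewise, went from 0.61 to 0.18 and was no longer called (limma adjusted p = 0.068). The list was drawn up with earlier results of these arrays known. DFG5, which encodes a GPI-anchored protein of the wall, read 5023, 4919.8 and 5115 with CQ and 1419.5, 1449 and 1375 with DMSO and rose by 1.82 ± 0.07 (adjusted p = 1.02e-06). CHS1 (chitin synthase), GSC2 (the stress-induced glucan synthase subunit) and YPS1 (a cell surface protease) followed at 1.49, 1.47 and 0.81, with GSC2 at 0.79 after removal of the length trend. CIS3, a wall mannoprotein gene, fell by 0.53 (SE 0.10; -0.89 with the index in the fit), with 3940, 4365 and 3385 with CQ and 5462, 5783 and 5603 with DMSO. Of the genes not called, SED1, BGL2 and HSP150 were picked out after their values were seen. Their mean intensities lay at 73.9 to 94.4% of the array maximum in both groups, where a difference can be understated. The remaining uncalled genes, CCW14 and PST1, stood lower on the scale. CCW14 was at 65.5% of the maximum with CQ and 68.7% with DMSO, with a log2 difference of -0.07. PST1 was at 50.2% with CQ and 49.8% with DMSO, with a log2 difference of 0.01 (95% interval -0.15 to 0.17).

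The other MAP kinase cascades of yeast served as a comparison, tier by tier. Of 17 genes of the high-osmolarity pathway 10 rose and 2 fell (median 0.38), and of 20 genes of the pheromone pathway 5 rose and 10 fell (median -0.40). Over all genes 36.1% were called higher and 31.9% lower. STE11, STE20, STE50 and CDC42 belong to both pathways. At the top tier BCK1 stood at 0.92 ± 0.09, the osmotic kinase genes SSK2 and SSK22 at 0.93 ± 0.09 and 0.95 ± 0.13, and the shared STE11 at 0.68 ± 0.10, all called. SSK2 (4740 bases) and SSK22 (3996 bases) are long like BCK1, and with the length trend removed BCK1 was at 0.37, SSK2 at 0.34 and SSK22 at 0.46; SSK22 was at 0.56 with the index in the fit. At the next tier MKK2 stood at 1.11 ± 0.09, MKK1 at 0.41 ± 0.12, PBS2 of the osmotic pathway at 0.71 ± 0.12 and STE7 of the pheromone pathway at 0.61 ± 0.08; with the index in the fit MKK1 was at 0.81 and PBS2 at 1.18. The MAP kinase genes themselves spanned the widest range of these tiers. SLT2 rose by 1.31 ± 0.07, HOG1 read 4225, 3969 and 4116 with CQ and 3990.3, 4254 and 3984 with DMSO (0.01 ± 0.07, interval -0.16 to 0.18), and FUS3, the mating kinase, read 519, 443 and 512 with CQ and 973, 1126 and 1014 with DMSO and fell by 1.06 (SE 0.09, adjusted p = 3.29e-05). KSS1, the kinase of filamentous growth, was higher by 0.69 ± 0.10, and by 1.06 with the index in the fit.

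Further changes in the comparison pathways were in SSK1, the osmotic response regulator gene (1.16 ± 0.18), and, in the pheromone pathway, in FAR1 (-1.44 ± 0.10), which encodes a cell cycle inhibitor, TEC1 (-1.44 ± 0.12), the filamentation factor gene, and STE4 (-1.13 ± 0.08), which encodes a G protein subunit. STE2, the receptor gene of the opposite mating type, was at 178 ± 18.5 with CQ and 99.8 ± 5.13 with DMSO (SD, n = 3), or 0.74 ± 0.09. STE20 and CDC42, which act upstream in both pathways, stood at -0.48 ± 0.15 and -0.38 ± 0.10; STE20 was at -0.30 without CQ replicate 2, at -0.80 with the length trend removed and not called without DMSO replicate 2 or 3, and with the index in the fit its sign turned (0.11, adjusted p = 0.606). With the index in the fit CDC42 was at -0.67 and SSK1 at 1.84. With the length trend removed 6 of the 17 genes of the high-osmolarity pathway rose in place of 10, where 1715 of all 5449 genes rose. What part coding length has in the count for that pathway was not tested.

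**Figure D5:**
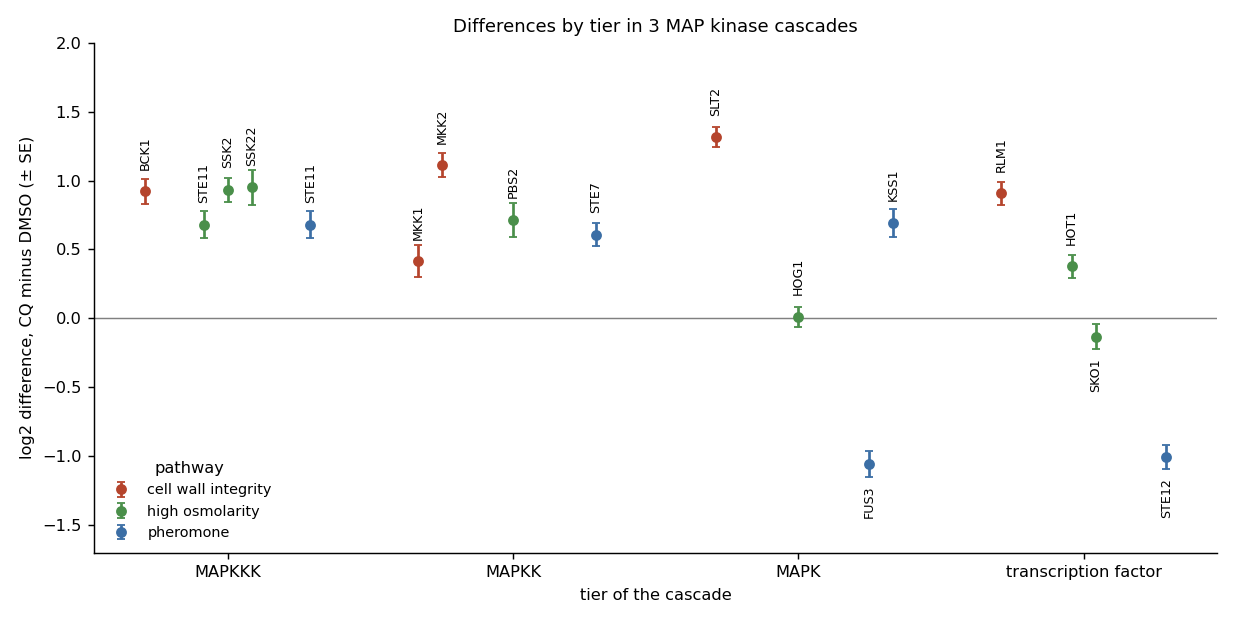
Log2 difference between CQ and DMSO (± SE from limma, n = 3 in each group) for genes at each tier of 3 MAP kinase cascades, the cell wall integrity pathway in red, the high-osmolarity pathway in green and the pheromone pathway in blue. At the MAPK tier SLT2 is at 1.31, KSS1 at 0.69, HOG1 at 0.01 and FUS3 at -1.06.

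Genes outside the pathway with the profile most like that of SLT2 were found by the root mean square distance over the 6 arrays, each gene set to its DMSO mean, among 5391 genes. The nearest were YCL012C (distance 0.05), BPT1 (a vacuolar ABC transporter gene), YRR1 (a drug-resistance transcription factor gene), BRR2 (a spliceosome helicase gene) and RBS1, with differences of 1.28 to 1.37. Arrays in 2 groups leave such a profile little room, and 1164 genes correlated with SLT2 at over 0.95 across the 6 arrays, so the likeness describes the size of the difference and little else. For WSC1, the gene with the lowest difference, the nearest were CBF1, PSR1, RAD61, KES1 and ALE1, at -0.36 to -0.31, and 58 genes correlated with it at over 0.95.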

How the data were processed

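The authors deposited 1 linear intensity per probe set and array for 6 Affymetrix arrays; the values were never negative. The sources used here name no scanning or summarising software and no scaling between arrays. RNA was extracted with hot phenol and labelled as biotin-cRNA, per the labels' protocols. Of 10928 probe sets, 5498 were paired with 1 S. cerevisiae gene and 1746 with a fission yeast gene in the platform annotation. For the 47 genes with several probe sets the one with the highest mean log2(intensity + 16) was used, which left 5449 genes. Background was set on each array from its fission yeast probe sets, at their 95th percentile.

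CQ and DMSO arrays were compared on log2(intensity + 16) by limma 3.58.1 in R 4.3.3 (two-sided; lmFit, then eBayes), with Benjamini-Hochberg adjustment over all 5449 genes. Values after ± are standard errors for log2 differences and SDs for intensities. The fit was tested on simulated data of 5449 genes, with 100 genes changed by 1 and 100 genes by 0.5 on the log2 scale. It recovered 97% and 63% of them, with 8 false calls. In the real data 36.1% of the genes were called higher and 31.9% lower, which makes the adjusted threshold less strict. The simulated shares therefore do not carry over to the real fit. The precision is limited by the 3 arrays in each group, and the labels do not say on which days the cultures were grown. The 3' to 5' index left out TDH1, which is near the top of the scale, and the deleted gene URA3. Coding lengths came from the RefSeq table of assembly R64, in which 97.0% of the lengths are multiples of 3; the array's build is unnamed, so coordinates are left out. Plots were drawn with matplotlib 3.10.9.

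The members, lists and tests were chosen with earlier results of these data known. All 10 members are named, with the 4 largest increases and the 4 largest decreases among the called genes of each other list, the genes of the pairs, and the 5 genes nearest to SLT2 and to the member with the lowest difference. There were 18 alternatives planned and 1 added (coding length). The labels do not say whether same-numbered cultures were paired, and the main fit used no pairing. Same-numbered CQ and DMSO arrays had correlations of 0.05, 0.12 and 0.14 between their deviations from the group means. Those of differently numbered arrays ran from -0.14 to -0.004, so a pairing cannot be set aside.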

Additional observations from a re-analysis of the deposited data

How the results depend on the processing

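Under all alternatives in which they were tested SLT2, MKK2, BCK1 and RLM1 stayed called as higher. The count of pathway genes called higher was 5 to 7 under the 19 alternatives. It was 5 of 10 with the length trend removed, where 1715 of all 5449 genes were higher. It was 5 of 8 with the dimmest 40% left out, where BCK1 and MKK2 were not tested and 1184 of 3269 genes were higher. The count called lower, 0 as deposited, was 1 with quantile normalization, 75th percentile centring, a pseudocount of 64, the dimmest 40% of genes left out, an intensity trend in eBayes or the replicate block, and 2 with arrays centred on the median; leaving out 1 array at a time it ran from 0 to 1. The single gene was WSC1 in each case, joined by MID2 with the median. Signs turned for WSC1 (0.26), WSC2 (0.16) and MID2 (0.029) with the 3' to 5' index in the fit and for PKC1 with the length trend removed (-0.019); the cause was not tested. Leaving out 1 array at a time, WSC2 ran from -0.077 to 0.023, with its sign turned without CQ replicate 2 or DMSO replicate 2.

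With the replicate block WSC1 was called (limma adjusted p = 0.0223), and no other call among the 10 genes changed. The block was not part of the main fit, since the labels do not say whether same-numbered cultures were paired. With the dimmest 40% left out, which tests 3269 genes, 1184 genes were higher and 1083 genes lower, against 1969 and 1739 over all genes. Of the pheromone genes 11 were tested in that setting and 1 was higher, against 5 of 20 as deposited. STE2, STE7, KSS1 and DIG2, called higher as deposited, were among the genes left out, so their calls were not tested there. Arrays centred on the median gave 1578 genes higher and 2211 genes lower, and 2 output genes lower in place of 1. With the length trend removed 2 of 18 output genes were lower and 6 of 17 osmotic genes higher, against 1826 lower and 1715 higher of all 5449 genes. Osmotic genes lower were 1 with the index in the fit, and 1 to 2 leaving out 1 array at a time. The pair differences kept their sign under every pseudocount and without each array, and were not computed under the other settings. With the index in the fit of single genes, MTL1 (0.16) stood above MID2 (0.029) and WSC1 (0.26) above WSC2 (0.16), the reverse of the order as deposited. That order was kept for MKK1 and MKK2, WSC2 and WSC3, ROM2 and ROM1, SLT2 and KDX1, and RLM1 and SMP1. With 3 arrays in each group, changes near 0.5 on the log2 scale can be missed.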
